A study of Mus musculus with 25 samples.

Results

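H3K27ac, the acetylation of histone H3 at lysine 27, was compared in mouse fibroblasts after 8 days in the reprogramming medium M9 (D8) with tdMEFs before the medium change (D0). The deposited table holds 24453 gene rows; 27 rows whose symbols had become dates and 205 rows at 0 in all 12 columns used were left out, which left 24221 genes. Of these, 23040 lie on autosomes and 16161 were high enough to be compared. The D8 cells are tdMEFs, as the labels name them, kept for 8 days in M9 at 5% oxygen. M9 is a serum-free mixture of Neurobasal and DMEM/F12 with N2, B27 without vitamin A, albumin and 9 agents. The agents are CHIR99021, which activates Wnt signalling by inhibiting GSK3, LDN193189 and A83-01, inhibitors of the BMP and TGF-beta receptors, Hh-Ag1.5, which switches on Hedgehog signalling through Smoothened, retinoic acid, the autophagy enhancer SMER28, RG108, which inhibits DNA methyltransferases, Parnate, which inhibits the histone demethylase LSD1, and the growth factor bFGF. The D0 cells are tdMEFs in MEF medium with fetal bovine serum at 20% oxygen, so medium, serum, oxygen, all agents and time in culture differ together between the stages and cannot be told apart. The series design text names ciNSLC beside day 0, whereas the sample labels name tdMEFs; the sample labels were followed. Each stage has 1 library made with the same antibody, so there is no replicate, no test and no SD, and every difference is one between these libraries.

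H3K27ac is placed by the acetyltransferases p300 and CBP at active promoters and enhancers and is removed by histone deacetylases. It is bound by bromodomain proteins and marks regulatory regions in use, whereas H3K4me3 marks promoters more broadly and H3K27me3 marks genes held silent by Polycomb. Fibroblasts carry H3K27ac at genes of the extracellular matrix and of mesenchymal identity, and neural stem cells carry it at genes of the Sox and Pax families.

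The D8 library held 7864525 reads and the D0 library 1582817, as the step of the deposited values implies, so that 1 read was worth 0.127 RPM (reads scaled to the library total) at D8 and 0.632 RPM at D0. The median gene had 19 reads at D8 and 3 reads at D0. The libraries also differed on the sex chromosomes, where the Y-linked genes averaged 0.286 of the autosomal mean at D8 and 0.952 at D0, and Xist had 4.83 RPM at D8 and 1.26 RPM at D0. For that reason only autosomal genes were ranked, and whether the stages come from the same preparation of cells was not tested. The change of a gene is the log2 ratio of D8 to D0 after D8 was multiplied by 0.710, which sets the median gene to 0, with 1.53 RPM added to both; this understates the change of low genes. Scaled ratios are given without the added value and with an exact 95% interval of the reads, which covers counting error only, since PCR reads are not independent molecules. Where a value stands for a mean over several regions, its implied reads are not whole and the interval is approximate. Levels are RPM as deposited and are not scaled to length, so they are compared between stages and not between genes.

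The RefSeq promoters (build GRCm38.p6, 250 bases before to 50 bases after the annotated start, 5′ to 3′ on the gene's strand) of 5 genes higher at D8 and 1 gene lower at D8 are shown so that the named motifs can be seen in them. Dhrs3, Irf2bpl, Nfkbia and Ddit4 had the largest changes of all compared genes, Bnip3 belongs to the low-oxygen list, and Anxa8 had the lowest change among genes with a promoter in the table. Capitals mark a match, on either strand, to one of 10 motifs, and positions count the bases from the start site. Of 27025 promoters of this length, 19.6% hold the hypoxia core ACGTG, 7.24% the E-box CACGTG that contains it, 1.85% the CRE TGACGTCA, 38.0% the CCAAT box CCAAT, 14.2% the TATA box TATAAA and 19% the glucocorticoid receptor hexamer AGAACA. The other 4 motifs, with no match here, were GLI TGGGTGGTC in 0.241% of promoters, TCF/LEF CTTTGAA in 5.26%, the nuclear receptor hexamer AGGTCA in 16.0% and AP-1 TGANTCA in 7.92%. Dhrs3 (chr4:144892577-144892876, plus strand) holds AGAACA from position -202. Irf2bpl (chr12:86884765-86885064, minus strand) holds TGACGTCA from -30. Nfkbia (chr12:55492598-55492897, minus strand) holds TTTATA, the TATA box on the other strand, from 20. Ddit4 (chr10:59951721-59952020, minus strand) holds ACGTG from -187 and the CCAAT box on the other strand from -170 and -137. Bnip3 (chr7:138909457-138909756, minus strand) holds CACGTG from -108, which is also the hypoxia core on both strands, and CCAAT from -53. Anxa8 (chr14:34085729-34086028, plus strand) holds none of the 10. Not shown are the promoters of Blcap and Cdkn1a, higher at D8, which also hold none of the 10. Nor is that of 1700086L19Rik, lower at D8, which holds CCAAT from -37. No contrast between higher and lower genes can be read from the promoters shown. A match is a description of the letters and not a site.
Dhrs3: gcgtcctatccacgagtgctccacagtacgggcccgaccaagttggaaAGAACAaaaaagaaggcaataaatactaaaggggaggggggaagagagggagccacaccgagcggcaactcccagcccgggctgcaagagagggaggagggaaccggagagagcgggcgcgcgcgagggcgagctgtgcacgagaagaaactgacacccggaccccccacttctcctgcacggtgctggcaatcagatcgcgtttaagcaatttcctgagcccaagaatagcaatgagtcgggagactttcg
Irf2bpl: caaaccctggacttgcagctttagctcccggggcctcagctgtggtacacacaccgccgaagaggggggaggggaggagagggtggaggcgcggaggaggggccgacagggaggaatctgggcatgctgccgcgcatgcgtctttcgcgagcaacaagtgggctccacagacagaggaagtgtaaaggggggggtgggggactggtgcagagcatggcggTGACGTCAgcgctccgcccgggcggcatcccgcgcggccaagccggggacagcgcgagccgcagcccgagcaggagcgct
Nfkbia: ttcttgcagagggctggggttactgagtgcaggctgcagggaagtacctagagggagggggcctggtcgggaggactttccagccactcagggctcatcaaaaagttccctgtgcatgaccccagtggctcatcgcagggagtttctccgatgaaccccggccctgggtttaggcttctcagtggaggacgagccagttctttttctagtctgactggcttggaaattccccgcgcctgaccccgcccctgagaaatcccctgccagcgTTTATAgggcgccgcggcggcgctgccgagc
Ddit4: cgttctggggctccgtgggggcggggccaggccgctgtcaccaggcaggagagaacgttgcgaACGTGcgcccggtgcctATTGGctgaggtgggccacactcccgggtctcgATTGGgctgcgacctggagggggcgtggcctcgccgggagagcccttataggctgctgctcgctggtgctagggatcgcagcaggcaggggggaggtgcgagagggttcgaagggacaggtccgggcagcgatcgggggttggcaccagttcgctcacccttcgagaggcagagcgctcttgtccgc
Bnip3: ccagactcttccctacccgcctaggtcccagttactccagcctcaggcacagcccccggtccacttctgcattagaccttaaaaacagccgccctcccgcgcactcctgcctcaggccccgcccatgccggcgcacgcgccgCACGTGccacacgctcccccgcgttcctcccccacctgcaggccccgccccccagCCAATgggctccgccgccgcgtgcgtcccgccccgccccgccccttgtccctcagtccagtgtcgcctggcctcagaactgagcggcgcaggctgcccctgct
Anxa8: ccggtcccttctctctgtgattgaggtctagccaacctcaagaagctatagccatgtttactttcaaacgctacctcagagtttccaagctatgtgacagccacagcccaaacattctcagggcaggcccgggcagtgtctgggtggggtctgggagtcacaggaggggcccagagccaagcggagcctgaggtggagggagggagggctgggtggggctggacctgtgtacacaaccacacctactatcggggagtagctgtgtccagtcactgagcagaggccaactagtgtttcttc
For the sets of genes the motif shares were not compared, because 12245 of the 16161 compared genes (75.8%) had a promoter in the table and the check is void under a coverage of 80%.

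At D8, 1531 genes were at least 2-fold higher and 1064 were at least 2-fold lower, which is 9.47% and 6.58% of the compared genes. The D0 depth limits the higher side. All 412 compared genes with no D0 read were counted as higher, since only their D8 level let them be compared. With D0 set to the limit that a count of 0 allows (3 reads, 1.90 RPM), 44 of them were at least 2-fold higher and the count came to 1163. For these genes the scaled ratio at the limit was taken without the added value, whereas all other genes kept it. The added value would lower that ratio, so fewer might pass with it. The list counts and medians given below at the 3-read limit mix the 2 measures in the same way. In 933 higher genes (5.77%) and in all 1064 lower genes (6.58%) the 95% interval of the reads lay on the same side of 1. On the lower side this follows largely from the added value and the filter, which leave at least 4 D0 reads in every lower gene. It is therefore no added support for the lower genes. With the confidence divided over all 16161 genes, an alternative chosen after the data were seen, 29 genes (0.179%) stayed higher and 12 (0.0743%) stayed lower. The scaling decides the balance. Of the genes past 2-fold, 59.0% were higher as scaled here, 89.5% (3185 higher, 375 lower) in the RPM as deposited and 11.7% (355 higher, 2687 lower) when 16 housekeeping genes were set to 0. Hmga2 (28.9 RPM at D8, 9.48 RPM at D0) and Postn (5.59 RPM at D8, 9.48 RPM at D0) lie just inside the higher and the lower limit, and Jun, at a change of 0.99, just outside.

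**Figure D1:**
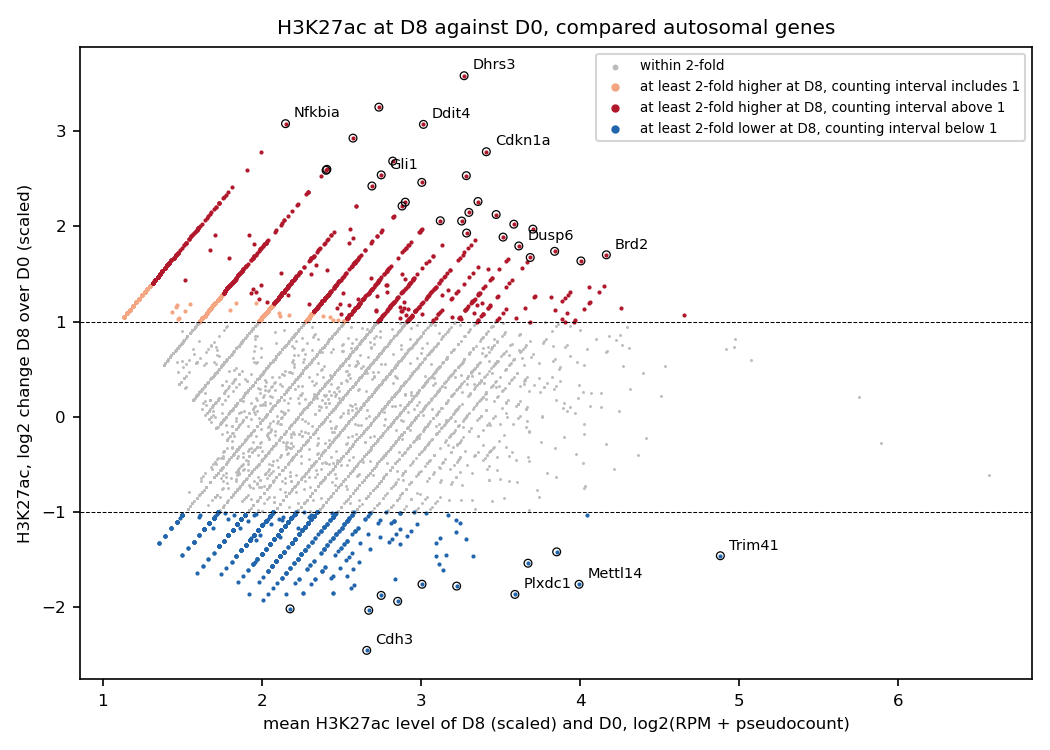
Log2 change of H3K27ac at D8 over D0 (y axis, scaled) against the mean of both libraries (x axis, log2 of RPM plus the pseudocount) for the 16161 compared genes; colours mark the 2-fold groups and circles the 29 higher and 12 lower genes kept with the interval over all genes. The diagonal lines are genes that share a low D0 read count, and Dhrs3 stands highest at 3.58 and Cdh3 lowest at -2.45.

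The gene with the largest change was Dhrs3 (chr4:144892534-144928209), a retinal reductase that removes the precursor of retinoic acid and is itself induced by it. It had 44.9 RPM at D8 and 1.26 RPM at D0 (353.5 and 2 reads), a scaled ratio of 25.2 (95% interval 6.94 to 209) and a change of 3.58. Its D4 value was 12.5 RPM, so D4 lay between the other stages. Irf2bpl, a nuclear protein with a RING finger, had 26.8 RPM at D8 and 0.632 RPM at D0, a ratio of 30.1 (5.35 to 1196). Nfkbia encodes IκBα, the inhibitor that holds NF-kappaB in the cytoplasm and is induced by it. It had 16.0 RPM at D8 and no read at D0, and was at least 6-fold higher against the 3-read limit. The 95% interval of its reads, which is wider, starts at a ratio of 4.81; of the other genes without a D0 read named with such a bound, it starts at 3.76 for Arhgef12, 2.76 for Rcor1, 3.22 for Bnip3, 1.71 for Zic1 and 2.52 for Hoxd11. Ddit4, a stress-induced inhibitor of mTORC1 also known as REDD1, had 30.9 RPM at D8 and 1.26 RPM at D0, a ratio of 17.4 (4.75 to 144). Blcap, first described as reduced in bladder cancer, had 21.0 RPM at D8 and 0.632 RPM at D0, a ratio of 23.6 (4.17 to 937). Its neighbour within 5 kb, the imprinted gene Nnat, had 1.91 RPM at D8 and 2.53 RPM at D0.

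**Figure D2:**
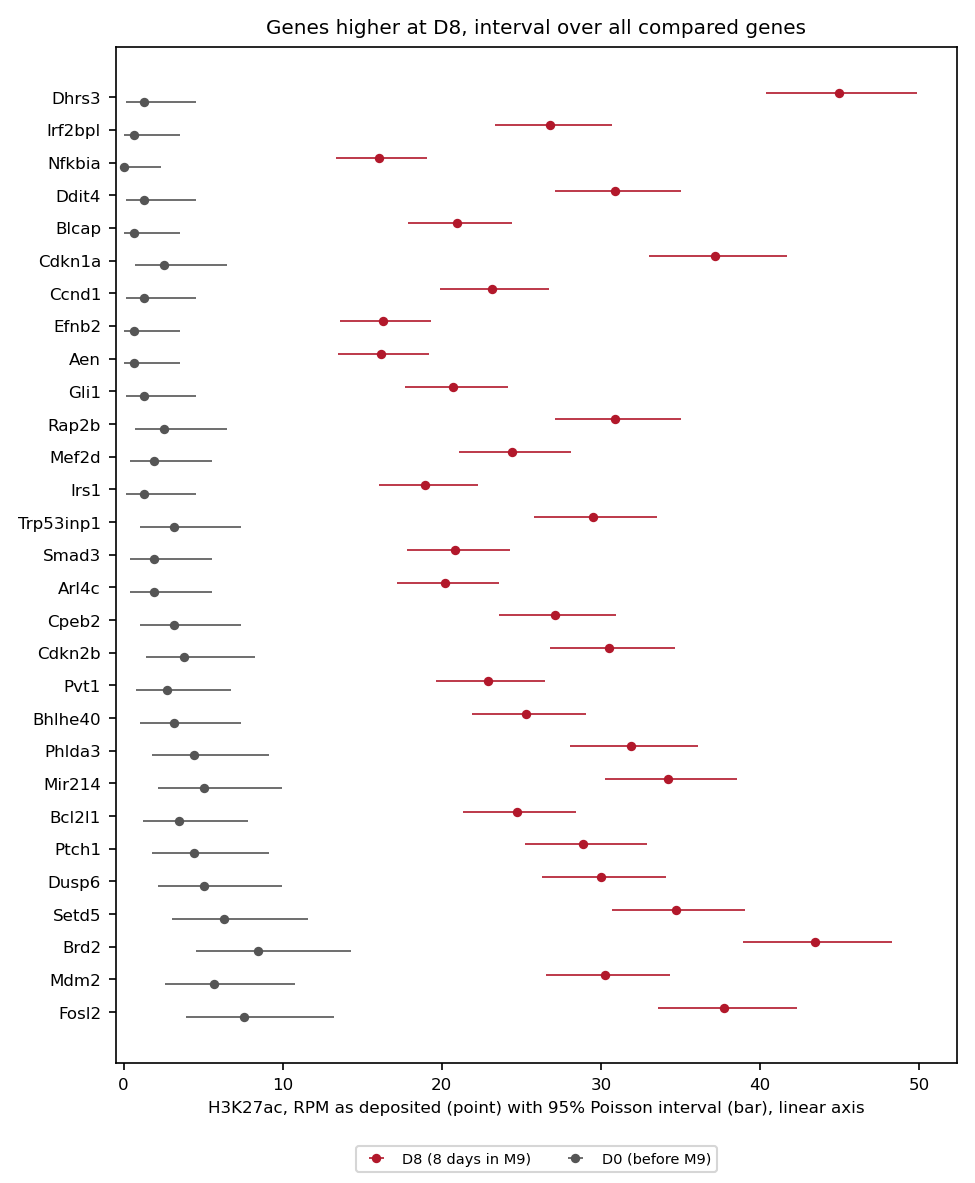
H3K27ac level (x axis, RPM as deposited, linear) of the 29 genes kept as higher with the interval over all genes, at D8 (red, upper of each pair) and D0 (grey), with 95% Poisson intervals as bars. D8 values run from 16.0 to 44.9 RPM and D0 values from 0 to 8.42 RPM. No pair of bars overlaps, which follows largely from the rule that kept these genes and is no added support.

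The 29 genes had D8 levels of 16.0 to 44.9 RPM, D4 levels of 5.08 to 19.8 RPM and D0 levels of 0 to 8.42 RPM, and changes of 1.64 to 3.58. Of these, 14 belong to the lists below. The others include Efnb2, a membrane ligand of Eph receptors, at 16.3 RPM at D8 and 0.632 RPM at D0, and Rap2b, a small GTPase of the Ras family, at 30.9 RPM at D8 and 2.53 RPM at D0. Irs1, the adaptor that carries insulin and IGF1 signals to PI3K, had 18.9 RPM at D8 and 1.26 RPM at D0, a ratio of 10.6 (2.90 to 88.7). Smad3, the receptor-activated effector of TGF-beta, had 20.9 RPM at D8 and 1.90 RPM at D0, a ratio of 7.81 (2.63 to 38.3). Mef2d, a MADS-box transcription factor, had 24.4 RPM at D8 and 1.90 RPM at D0. Bcl2l1, which encodes the survival protein Bcl-xL, had 24.7 RPM at D8 and 3.47 RPM at D0, a ratio of 5.05 (2.20 to 14.7). Brd2, a bromodomain protein that itself binds acetylated histones, had 43.4 RPM at D8 and 8.42 RPM at D0, a ratio of 3.66 (2.13 to 6.88). Among the 20 genes with the largest change, those outside the 29 had fewer D8 reads. Of these, Arhgef12, a guanine nucleotide exchange factor, had 12.6 RPM at D8 and none at D0 (at least 4.71-fold higher against the 3-read limit, interval from 3.76). Rcor1, the CoREST scaffold that binds LSD1, had 9.28 RPM at D8 and none at D0 (at least 3.48-fold higher against that limit, interval from 2.76). Ddx5, an RNA helicase, had 13.5 RPM at D8 and 0.632 RPM at D0, and its neighbour Cep95 had 13.2 RPM at D8 and 1.90 RPM at D0; whether the pair shares reads was not tested.

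The Hedgehog list, whose pathway is switched on in M9 by Hh-Ag1.5, had 14 compared genes, of which 4 were higher, none was lower and the median change was 0.56. That share of 28.6% stands beside 9.47% of all compared genes, 12.4% of genes with H3K4me3 (defined below) and 4 of 16 housekeeping genes. The median of all compared genes is 0, that of genes with H3K4me3 is 0.21 and that of the housekeeping list is 0.50, and each list median is read beside these. The list counts given below hold for the scaling used here and depend on it. With the housekeeping genes set to 0, the higher count was 2 in the Hedgehog list, 2 in the Wnt list, 2 in the retinoic acid list, 1 in the FGF and ERK list, 6 in the low-oxygen list, 1 in the glycolysis list and 5 in the list of CDK inhibitors and p53 targets. It was 2 in the immediate early list, 0 in the FoxO list, 2 in the sterol list, 3 in the neural progenitor list and 3 in the Hox list, and 10 cell cycle genes were lower. In the RPM as deposited, 6 Hedgehog, 5 Wnt, 12 retinoic acid, 15 FGF and ERK, 15 low-oxygen, 13 glycolysis and 14 CDK inhibitor and p53 genes were higher. In those values 12 immediate early, 8 FoxO, 13 sterol, 11 neural progenitor and 14 Hox genes were also higher, and 1 cell cycle gene was lower. The ligand-binding receptor Ptch1, a direct Gli target that feeds back on the pathway, had 28.9 RPM at D8 and 4.42 RPM at D0, a ratio of 4.63 (2.21 to 11.7). Of the Gli transcription factors, Gli1, itself a target, had 20.7 RPM at D8 and 1.26 RPM at D0, a ratio of 11.6 (3.17 to 97.0). Gli2, the main activator, had 14.4 RPM at D8 and 3.16 RPM at D0, a ratio of 3.23 (1.34 to 10.1). Gli3, the main repressor form, had 12.5 RPM at D8 and 11.4 RPM at D0, a ratio of 0.778 (0.467 to 1.37) whose interval includes 1. The feedback antagonist Hhip had 6.36 RPM at D8 and 4.42 RPM at D0, a ratio of 1.02 (0.460 to 2.67). The co-receptors Boc and Gas1 had changes of -0.43 and 0.68, and the signal transducer Smo one of 0.55. Foxc2 was the other higher member at 1.04, with an interval that includes 1 (0.948 to 14.5).

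Of 17 Wnt target genes, 4 were higher and 1 lower, with a median of 0.25. Axin2, the feedback scaffold of the beta-catenin destruction complex, had 15.9 RPM at D8 and 1.90 RPM at D0, a ratio of 5.95 (1.99 to 29.3). Ccnd1, cyclin D1 of the G1 phase, had 23.1 RPM at D8 and 1.26 RPM at D0, a ratio of 13.0 (3.55 to 108). Lef1, a nuclear partner of beta-catenin, had 4.07 RPM at D8 and 0.421 RPM at D0, and its interval of 0.858 to 1381 includes 1. Wif1 was counted as higher only because it had no D0 read; at the 3-read limit the list held 3 higher genes and its median was 0.18. Notum, a secreted Wnt deacylase, was lower at 0.890 RPM at D8 and 3.16 RPM at D0. Among the other targets Myc had a ratio of 1.24 (0.620 to 2.81) and Fzd7 one of 1.37 (0.754 to 2.73).

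The retinoic acid list had 20 compared genes, 4 higher and none lower, with a median of 0.69. Besides Dhrs3 they were the receptor gene Rarb, a classical direct target, Nrip1 and Cyp26c1. Rarb had 13.0 RPM at D8 and 3.47 RPM at D0, a ratio of 2.66 (1.15 to 7.85). Nrip1, a corepressor of nuclear receptors, had 15.4 RPM at D8 and 0.632 RPM at D0, a ratio of 17.3 (3.04 to 688). Cyp26c1, a retinoic acid hydroxylase, had 2.67 RPM at D8 and no D0 read, and at the 3-read limit it was not higher, which left 3 higher genes and a median of 0.62. The other hydroxylases Cyp26a1 and Cyp26b1 were too low to be compared, at 1.02 and 1.59 RPM at D8 and 1.90 and 0.632 RPM at D0. The receptors Rara and Rarg had changes of 0.96 and 0.59, and the retinoid X receptor Rxra one of -0.46.

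Of 20 genes of FGF and ERK signalling, 7 were higher and 1 was lower, with a median of 0.79. Dusp6, the phosphatase that inactivates ERK, had 30.01 RPM at D8 and 5.05 RPM at D0, a ratio of 4.21 (2.10 to 9.88). Spry1, Spry4 and Spred2, feedback inhibitors of receptor tyrosine kinase signalling, had ratios of 2.94 (1.22 to 9.26), 3.04 (1.14 to 11.4) and 3.37 (1.4 to 10.6). The ETS factor Etv5 had 6.74 RPM at D8 and 1.26 RPM at D0, while its relatives Etv4 and Etv1 had changes of -0.27 and 0.74. The receptor gene Fgfr2 was the lower member, at 2.54 RPM at D8 and 5.69 RPM at D0, a ratio of 0.317 (0.138 to 0.792), and Fgfr1 had a ratio of 1.21 (0.629 to 2.62).

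The targets of BMP and TGF-beta, whose receptors M9 inhibits, had a median of -0.10 over 17 genes, with 2 higher and 1 lower. Id1 and Id3, direct BMP targets that block basic helix-loop-helix factors, had 15.1 and 25.7 RPM at D8 and 13.3 and 21.5 RPM at D0, and both ratio intervals include 1 (0.506 to 1.36 and 0.588 to 1.26). Id2 had a change of -0.80 and Smad6 one of -0.47, also with intervals that include 1. The inhibitory Smad gene Smad7 was higher at 17.7 RPM at D8 and 3.79 RPM at D0, a ratio of 3.31 (1.48 to 9.17), as was Tgif1, a corepressor of Smads, with a ratio of 2.88 (1.43 to 6.79).

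**Figure D3:**
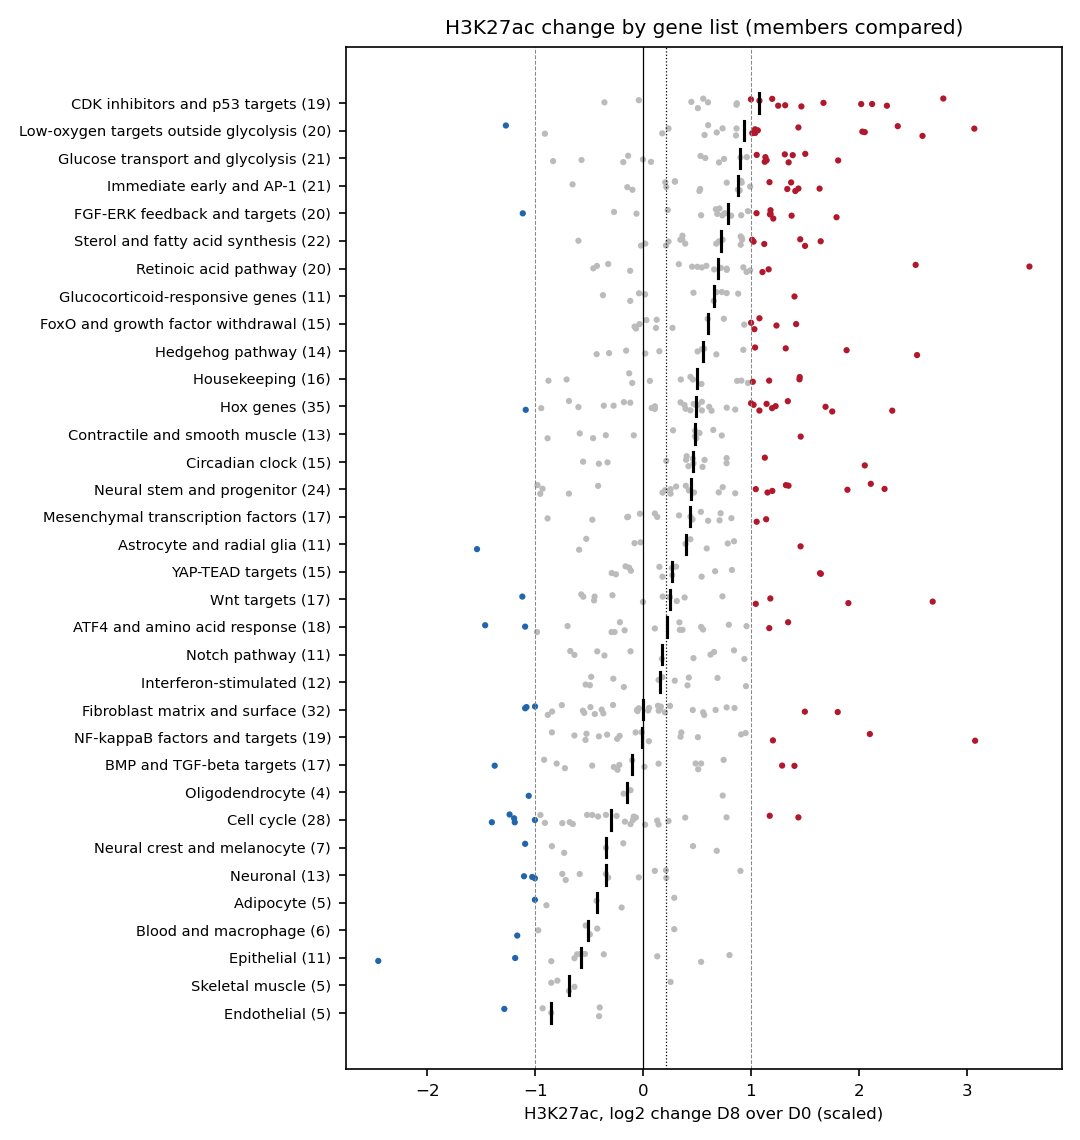
Log2 change of H3K27ac at D8 over D0 (x axis, scaled) for the compared members of 34 gene lists; each point is a gene, red from 2-fold higher and blue from 2-fold lower, black bars are medians and the numbers are the compared members. The solid line marks 0, the median of all compared genes, and the dotted line 0.21, the median of genes with H3K4me3; with this scaling CDK inhibitors and p53 targets stand at the top at 1.08 and endothelial genes at the bottom at -0.85.

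D8 cells were kept at 5% oxygen, and targets of the hypoxia-inducible factors were split into those inside and outside glycolysis. Outside glycolysis, 10 of 20 compared genes were higher and 1 lower, with a median of 0.94, and 9 of the 10 had an interval above 1. Bnip3, a mitophagy receptor, had 10.8 RPM at D8 and no D0 read and was at least 4.05-fold higher against the 3-read limit (interval from 3.22). Adm, the vasodilator adrenomedullin, had 10.3 RPM at D8 and 0.632 RPM at D0, a ratio of 11.6 (2.02 to 463). Kdm3a, an oxygen-dependent H3K9 demethylase, had 13.5 RPM at D8 and 0.632 RPM at D0, a ratio of 15.1 (2.66 to 604). Bhlhe40, a transcriptional repressor that is also part of the clock, had 25.3 RPM at D8 and 3.16 RPM at D0, a ratio of 5.69 (2.40 to 17.7). Vegfa, the vascular growth factor, had 13.1 RPM at D8 and 3.66 RPM at D0, a ratio of 2.55 (1.12 to 7.25). Not all members moved this way, since Ndrg1 was lower at 2.80 RPM at D8 and 6.95 RPM at D0, and Car9, the carbonic anhydrase often used as a low-oxygen marker, had 0.890 RPM at D8 and 2.53 RPM at D0, with an interval of 0.0636 to 1.16. Among the oxygen sensors Egln1 and Egln3 the changes were 0.74 and 0.60.

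Of 21 genes of glucose transport and glycolysis, 9 were higher and none was lower, with a median of 0.90. The glucose transporter Slc2a1 had 8.14 RPM at D8 and 1.26 RPM at D0, a ratio of 4.57 (1.21 to 38.6). Gapdh had 17.9 RPM at D8 and 2.53 RPM at D0, a ratio of 5.02 (1.92 to 18.7), and Eno1, enolase, 21.5 RPM at D8 and 5.05 RPM at D0, a ratio of 3.02 (1.5 to 7.10). Pfkfb3, which makes the activator of phosphofructokinase, had 9.63 RPM at D8 and 1.42 RPM at D0, a ratio of 4.81 (1.37 to 34.0). Ldha, lactate dehydrogenase, had a ratio of 2.71 (1.18 to 7.81), and the lactate exporter Slc16a3 one of 2.86 (0.983 to 12.7). Pdk1, which keeps pyruvate out of the mitochondria, had 4.45 RPM at D8 and 3.16 RPM at D0, a ratio of 1.00 (0.390 to 3.27).

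The list of CDK inhibitors and p53 targets had a median of 1.08, the highest of the 34 as scaled here, with 11 of 19 genes higher, none lower, and an interval above 1 in all 11. Under quantile scaling the low-oxygen list stood higher (0.90 against 0.84), as did the neural progenitor list among genes with a mean above the 75th percentile (0.94 against 0.91). Cdkn1a, which encodes the CDK inhibitor p21, had 37.2 RPM at D8 and 2.53 RPM at D0, a ratio of 10.4 (4.04 to 38.6). Cdkn2b, which encodes p15, had 30.5 RPM at D8 and 3.79 RPM at D0, a ratio of 5.71 (2.59 to 15.7), and its neighbour Cdkn2a, which encodes p16 and p19Arf, had 11.2 RPM at D8 and 1.90 RPM at D0, a ratio of 4.19 (1.39 to 20.7). Mdm2, the ubiquitin ligase that degrades p53, had 30.3 RPM at D8 and 5.69 RPM at D0, a ratio of 3.78 (1.96 to 8.36). Trp53inp1, a nuclear stress protein, had a ratio of 6.63 (2.80 to 20.6) and Phlda3, an inhibitor of Akt, one of 5.12 (2.45 to 12.9). Bbc3, the death-promoting gene known as Puma, had 26.3 RPM at D8 and 6.95 RPM at D0, a ratio of 2.69 (1.47 to 5.47). Aen, an exonuclease induced by p53 and not in the list, had 16.1 RPM at D8 and 0.632 RPM at D0. Cdkn1c and Cdkn2d, which encode p57 and p19Ink4d, had changes of -0.04 and -0.36.

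Cell cycle genes lay on the other side, with a median of -0.29, 5 of 28 lower and 2 higher. Mki67, the proliferation antigen, had 2.03 RPM at D8 and 6.32 RPM at D0, a ratio of 0.229 (0.0975 to 0.563). The replication helicase subunits Mcm5 and Mcm3 had 2.16 and 2.29 RPM at D8 and 5.69 RPM each at D0, and the spindle checkpoint kinases Bub1 and Bub1b 2.03 and 1.53 RPM at D8 and 4.42 RPM each at D0. The higher genes were Birc5, which encodes survivin, with a ratio of 3.75 (1.42 to 14), and E2f1 with one of 3.02 (1.14 to 11.3). The mitotic kinase Cdk1 had 7.76 RPM at D8 and 8.21 RPM at D0, a ratio of 0.670 (0.364 to 1.33).

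Immediate early and AP-1 genes had a median of 0.88, with 6 of 21 higher and none lower, and 5 higher with a median of 0.78 when Fosb, which had no D0 read, was set to the 3-read limit. Fosl2, which encodes the AP-1 subunit Fra-2, had 37.8 RPM at D8 and 7.58 RPM at D0, a ratio of 3.54 (1.99 to 6.92). Zfp36, which destabilises cytokine mRNAs, had a ratio of 3.07 (1.52 to 7.23), Klf4 one of 4.00 (1.32 to 19.8) and Klf10 one of 3.14 (1.41 to 8.72). Jun, at 25.2 RPM at D8 and 8.21 RPM at D0, was just under the 2-fold limit with a ratio of 2.18 (1.24 to 4.16), and Fos had a ratio of 1.23 (0.488 to 3.97). In the NF-kappaB list 3 of 19 genes were higher, none was lower and the median was -0.01, a sign that flips in the RPM as deposited and under trimmed-mean scaling. The 3 were Nfkbia, the partner Bcl3, with 18.6 RPM at D8 and 1.90 RPM at D0 and a ratio of 6.95 (2.33 to 34.1), and Nfkb2, with a ratio of 3.88 (1.02 to 32.9). The cytokine targets did not reach 2-fold, with Ccl2 at 13.2 RPM at D8 and 9.48 RPM at D0, a ratio of 0.990 (0.574 to 1.83), and Il6 at a change of -0.41.

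The FoxO, sterol, clock, glucocorticoid and ATF4 lists had positive medians. Those of the clock and ATF4 lists lay below the 0.50 of the housekeeping list. The FoxO list had a median of 0.60 with 5 of 15 genes higher and none lower; among them Ccng2, a cyclin of resting cells, had 15.5 RPM at D8 and 3.16 RPM at D0, a ratio of 3.49 (1.45 to 10.9), Irs2 a ratio of 3.18 (1.2 to 11.9) and Foxo3 itself one of 2.41 (1.24 to 5.38). Sterol and fatty acid synthesis had a median of 0.72 with 6 of 22 higher and none lower, and 5 higher with a median of 0.69 with Mvk at the 3-read limit. Fasn, fatty acid synthase, had 8.65 RPM at D8 and 1.26 RPM at D0, a ratio of 4.86 (1.29 to 40.9), and Hmgcs1, an early enzyme of sterol synthesis, one of 2.89 (1.09 to 10.9). The clock list had a median of 0.46 with Bhlhe40 and Dbp higher among 15, and the core activator Arntl had 5.98 RPM at D8 and 6.95 RPM at D0, a ratio of 0.610 (0.312 to 1.31). Glucocorticoid-responsive genes had a median of 0.66 with 1 of 11 higher, Cebpb, with a ratio of 3.64 (1.38 to 13.6). That share of 9.09% is near the 9.47% of all compared genes. The ATF4 list was mixed, with a median of 0.22, 2 of 18 higher and 2 lower. Its higher genes were Sesn2, a ratio of 3.29 (1.37 to 10.3), and Atf4, one of 2.59 (1.33 to 5.76), and its lower genes were the pseudokinase Trib3, at 5.09 RPM at D8 and 12.6 RPM at D0, a ratio of 0.286 (0.163 to 0.516), and Shmt2, one of 0.286 (0.108 to 0.836).

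All 32 fibroblast genes had reads at both stages, as did all 10 blood and all 10 skeletal muscle genes. Reads alone therefore do not check the label of the starting cells. The summed level of the fibroblast genes was 377 RPM at D8 and 263 RPM at D0 as deposited, a ratio of 1.02 after scaling. As scaled here 2 were higher, 3 lower and 27 between; 6 were higher and none lower in the RPM as deposited, 2 higher and 6 lower under quantile scaling, and 1 higher and 9 lower with the housekeeping genes set to 0. The median as scaled here was 0.0048, and its sign flips among genes with a mean above the 75th percentile and under quantile and housekeeping scaling. The higher genes were Dcn, the proteoglycan decorin, with 24.0 RPM at D8 and 3.79 RPM at D0, a ratio of 4.50 (2.03 to 12.4), and the gelatinase Mmp2, with 16.5 RPM at D8 and 3.16 RPM at D0, a ratio of 3.71 (1.55 to 11.6). The lower genes were Eln and Fbln5 of the elastic fibre, with ratios of 0.286 (0.108 to 0.836) and 0.406 (0.237 to 0.725), and Postn, with one of 0.419 (0.229 to 0.811). The collagen I genes Col1a1 and Col1a2 had 19.5 and 12.0 RPM at D8 and 20.8 and 16.4 RPM at D0; their changes of -0.55 and -0.84 were under 2-fold, though both intervals lay below 1 (0.452 to 0.996 and 0.332 to 0.831). Thy1 and S100a4 had changes of 0.05 and -0.56. Of 17 compared mesenchymal transcription factors none was lower and 2 were higher, Twist1 with 18.9 RPM at D8 and 5.69 RPM at D0, a ratio of 2.37 (1.21 to 5.27), and Foxc1 with a ratio of 2.57 (1.27 to 6.07). Prrx1, a homeobox factor of limb mesenchyme, had 37.1 RPM at D8 and 17.7 RPM at D0, a ratio of 1.49 (1.01 to 2.28). Of 13 contractile genes only the myosin heavy chain gene Myh9 was higher, with a ratio of 3.29 (1.63 to 7.72), and Acta2, smooth muscle actin, had a ratio of 1.26 (0.674 to 2.61). Among 15 YAP and TEAD genes the coactivators Yap1 and Wwtr1 were higher, with ratios of 4.86 (1.62 to 23.9) and 4.14 (1.74 to 13.0), while the targets Ctgf and Cyr61 had changes of -0.13 and 0.18.

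Of 34 neural stem and progenitor genes, 24 were compared, 8 were higher, none was lower and the median was 0.45. With the genes lacking a D0 read at the 3-read limit, 7 were higher with a median of 0.41. The summed level of the 34 genes was 149 RPM at D8 and 65.1 RPM at D0 as deposited, a ratio of 1.63 after scaling. The same ratio was 1.70 for the housekeeping list and 1.05 for all genes. Of the 34 genes, 2, Pou3f2 and Zic1, had no read at D0. Sox11, an SRY-related factor of neural precursors, had 12.2 RPM at D8 and 0.632 RPM at D0, a ratio of 13.7 (2.40 to 547). The orphan nuclear receptor genes Nr2f1 and Nr2f2 had 18.7 and 20.2 RPM at D8 and 1.90 and 5.37 RPM at D0, with ratios of 7 (2.35 to 34.3) and 2.66 (1.34 to 6.09). Zic1, a zinc finger factor of the dorsal neural tube, had 5.85 RPM at D8 and was at least 2.19-fold higher against the 3-read limit (interval from 1.71). Zic2, Irx3 and Msi2 had ratios of 6.29 (1.07 to 254), 6.14 (1.05 to 248) and 3.21 (1.05 to 16.0), each resting on 1 to 3 D0 reads. The factors most often used to define neural stem cells were at low levels or had intervals that include 1. Sox2 had 4.20 RPM at D8 and 1.90 RPM at D0 (33 and 3 reads), a ratio of 1.57 (0.493 to 8.01), and Sox9 a ratio of 1.21 (0.521 to 3.46). Nes, the intermediate filament nestin, had 4.96 RPM at D8 and 1.26 RPM at D0, a ratio of 2.79 (0.721 to 23.8). Pax6 and Olig2 were too low to be compared, at 1.88 and 1.91 RPM at D8 and 2.21 and 1.26 RPM at D0, and a difference there was not detectable at this depth.

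Of the Hox genes, which record position along the body axis and are induced in order by retinoic acid, 35 were compared, 10 were higher and 1 was lower, with a median of 0.49. The higher genes lay in all 4 clusters: Hoxa3, Hoxa4, Hoxa5 and Hoxa11, Hoxb3, Hoxb4 and Hoxb9, Hoxc5, and Hoxd11 and Hoxd12. Hoxb4 had 14.1 RPM at D8 and 1.90 RPM at D0, a ratio of 5.29 (1.76 to 26.0), and Hoxa5 10.6 RPM at D8 and 1.26 RPM at D0, a ratio of 5.93 (1.59 to 49.8). Hoxd11 had 8.52 RPM at D8 and no D0 read, at least 3.19-fold higher against the 3-read limit (interval from 2.52). Hoxd3 was the lower member, with 3.05 RPM at D8 and 6.32 RPM at D0, a ratio of 0.343 (0.158 to 0.803). Hox genes lie side by side, and whether neighbours share reads was not tested.

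Genes of more mature neural cells were counted in 3 lists, and those of the Notch pathway beside them; differences from the progenitor list were not tested. Of 13 compared neuronal genes none was higher and 3 were lower, with a median of -0.34 that turns positive (0.70, from 1 gene) among genes with a mean above the 75th percentile; Neurog1 was at 0.509 RPM at D8 and 2.53 RPM at D0, Neurod1 at 1.53 RPM at D8 and 3.79 RPM at D0, and Ina at 2.03 RPM at D8 and 4.42 RPM at D0. Neurog1 rests on 4 reads at each stage. Tubb3 had a ratio of 0.679 (0.226 to 2.74). Of the 13 genes, 4 had a change above 0, the largest being 0.90 in Cadps. Cadps had 6.87 RPM at D8 and 1.90 RPM at D0, a ratio of 2.57 (0.834 to 12.9) whose interval includes 1. The 11 astrocyte and radial glia genes had a median of 0.39, with 1 higher and 1 lower. Gja1, the gap junction gene, was higher with 16.0 RPM at D8 and 3.16 RPM at D0, a ratio of 3.60 (1.5 to 11.3), and Cd44 was lower; Gfap had 3.31 RPM at D8 and 0.632 RPM at D0, a ratio of 3.71 (0.610 to 152). Only 4 of 10 oligodendrocyte genes were compared, 1 of them lower, and Sox10, Gpr17, Opalin and Myrf had no read at D0. None of 11 Notch genes passed 2-fold; the ligand gene Jag1 had the largest positive change, 0.94, and the effector Hes1 one of 0.47.

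Markers of 6 other cell types were summed at each stage, in RPM as deposited. The summed level of 18 epithelial genes was 43.6 RPM at D8 and 49.0 RPM at D0, that of 10 endothelial genes 17.9 RPM at D8 and 23.5 RPM at D0, and that of 10 blood genes 22.5 RPM at D8 and 25.1 RPM at D0. It was 14.4 RPM at D8 and 17.1 RPM at D0 for 10 skeletal muscle genes, 35.9 RPM at D8 and 31.0 RPM at D0 for 10 neural crest and melanocyte genes, and 23.1 RPM at D8 and 20.3 RPM at D0 for 10 adipocyte genes. After scaling, the ratios of the D8 to the D0 sums were 0.63, 0.54, 0.64, 0.60, 0.82 and 0.81 in the order given. No marker of these lists was at 0 at D8; Krt7, Krt14, Kdr, Sox10 and Lpl were at 0 at D0. None of the compared genes in these lists was higher, and 2 of 11 epithelial, 1 of 5 endothelial, 1 of 6 blood, 1 of 7 neural crest and 1 of 5 adipocyte genes were lower. The lists' medians lay between -0.85 for endothelial and -0.34 for neural crest genes, and that of 12 interferon-stimulated genes, none past 2-fold, was 0.16. In bulk chromatin fewer cells of a type and less H3K27ac per cell cannot be told apart, and the part of other cell types in the results was not tested.

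The 12 genes kept as lower with the interval over all genes had 1.02 to 22.9 RPM at D8 and 7.58 to 47.4 RPM at D0. Cdh3, which encodes P-cadherin, an adhesion protein of epithelia, had the lowest change of all, with 1.65 RPM at D8 and 13.3 RPM at D0 (13 and 21 reads), a ratio of 0.0884 (0.0407 to 0.185). The epithelial markers Cdh1 and Epcam had 1.53 RPM each at D8 and 1.90 and 1.26 RPM at D0. Of the 11 compared epithelial genes, 3 had a change above 0, the largest being 0.80 in F11r. F11r had 12.5 RPM at D8 and 4.42 RPM at D0, a ratio of 2.00 (0.935 to 5.11) whose interval includes 1. Anxa8, a calcium-dependent phospholipid-binding annexin, had 2.29 RPM at D8 and 11.4 RPM at D0, a ratio of 0.143 (0.0701 to 0.291). Ptn, the secreted growth factor pleiotrophin, had 4.96 RPM at D8 and 15.8 RPM at D0, a ratio of 0.223 (0.132 to 0.384). Cd44, the hyaluronan receptor of mesenchymal cells, had 8.39 RPM at D8 and 20.2 RPM at D0, a ratio of 0.295 (0.190 to 0.465). Mettl14, a subunit of the N6-adenosine RNA methyltransferase, had 10.0 RPM at D8 and 27.8 RPM at D0, a ratio of 0.256 (0.175 to 0.380). Trim41, a ubiquitin ligase, had 22.9 RPM at D8 and 47.4 RPM at D0 (180 and 75 reads), a ratio of 0.343 (0.260 to 0.455). Plxdc1, a plexin-domain membrane protein, had 6.74 RPM at D8 and 21.5 RPM at D0, and Il1rl2, a receptor of interleukin-36, 3.05 RPM at D8 and 12.6 RPM at D0. Lrrc17, Ppp6r3, 1700086L19Rik and E130310I04Rik complete the 12.

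**Figure D4:**
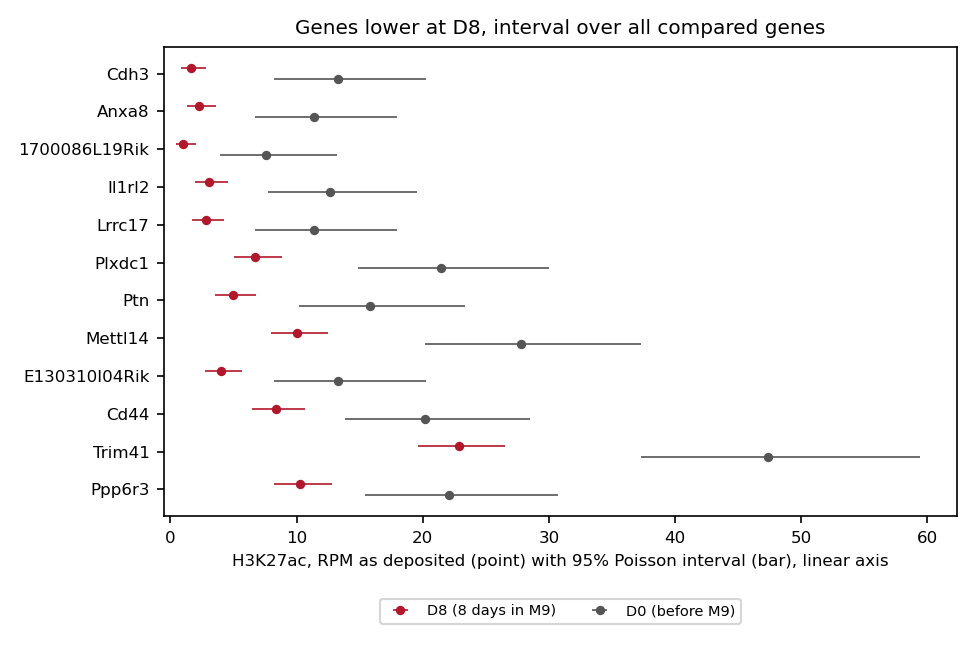
H3K27ac level (x axis, RPM as deposited, linear) of the 12 genes kept as lower with the interval over all genes, at D8 (red, upper of each pair) and D0 (grey), with 95% Poisson intervals as bars. D8 values run from 1.02 to 22.9 RPM and D0 values from 7.58 to 47.4 RPM, with Trim41 the highest at both stages.

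The other marks of the same stages, measured in separate libraries and each scaled to its own median, were set beside these groups. A gene was taken to carry H3K4me3 where it reached 6.02 RPM, the median of that mark, at both D8 and D0. Of the 9717 genes with H3K4me3, 12.4% were higher, 2.24% were lower and the median H3K27ac change was 0.21; of the 6444 without it, 5.07% were higher, 13.1% were lower and the median was -0.45. The higher genes carried H3K4me3 in 78.6% of cases and the lower genes in 20.5%, against 60.1% of all compared genes. Median H3K4me3 was 47.1 RPM at D8 and 13.5 RPM at D0 in the higher genes, and 1.35 RPM at D8 and 2.14 RPM at D0 in the lower genes. Over all compared genes it was 30.4 RPM at D8 and 9.19 RPM at D0, so this mark rose as deposited in these as well. Olfactory or vomeronasal receptor genes numbered 18 in the higher group, 101 in the lower group and 687 among all compared genes. MicroRNA or snoRNA genes numbered 51 in the higher group, 72 in the lower group and 763 among all compared genes. Of the 29 higher genes kept with the interval over all genes, 28 had a positive H3K4me3 change, with a median of 0.78 and a highest value of 1.84 at Gli1; Mir214 was the exception at -0.61. All 12 lower genes had a negative H3K4me3 change, between -2.08 and -0.09, against 50.0% of all compared genes with a positive one. These signs hold after scaling, in which H3K4me3 at D8 was multiplied by 0.370. In the RPM as deposited, some of the 12 had more H3K4me3 at D8, such as Trim41 (48.4 RPM at D8, 20.9 RPM at D0). Others had less, such as Lrrc17 (13.3 RPM at D8, 25.3 RPM at D0). The marks H3K4me1 and H3K27me3 differed less, with median changes of 0.07 and 0.00 in the higher genes and -0.24 and 0.05 in the lower genes.

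**Figure D5:**
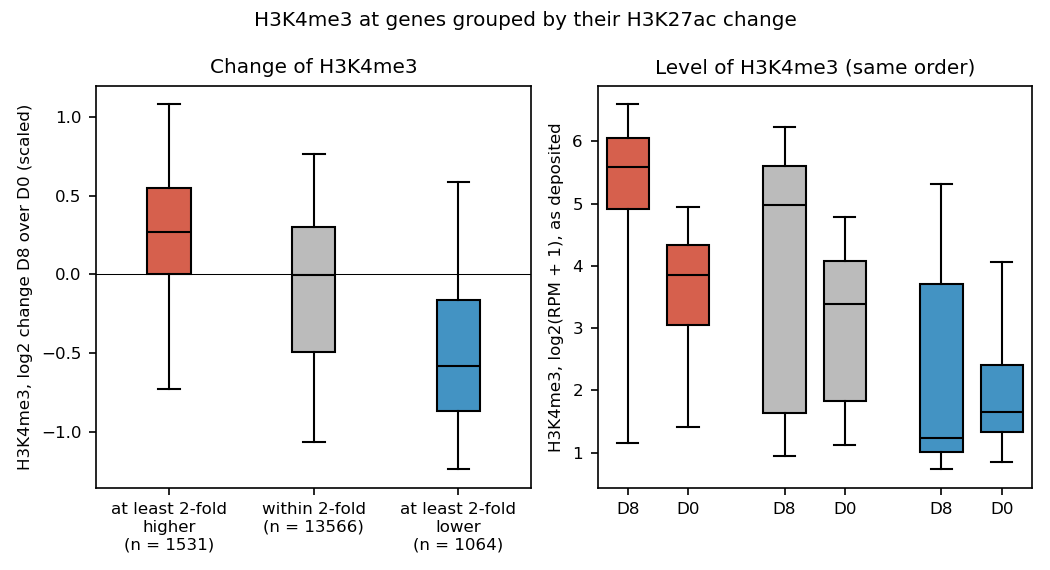
H3K4me3 at genes grouped by their H3K27ac change; boxes span the quartiles with the median as a line, and whiskers the 5th to 95th percentile. Left, log2 change of H3K4me3 at D8 over D0 (scaled), with medians of 0.27 in the higher, -0.01 in the between and -0.59 in the lower genes; right, its level at D8 and D0 as log2 of RPM plus 1.

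Depth and library enrichment moved with these differences. Genes past the 2-fold limit had a median of 2 D0 reads on the higher side and 7 on the lower side, and the 99th percentile of H3K27ac was 18.2 RPM at D8 and 8.84 RPM at D0. The genes of the table took 8.86% of all reads at D8 and 5.96% at D0. The part of depth and of enrichment in the results was not tested, and with 1 library a stage they cannot be told apart from the stage.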

How the data were processed

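H3K27ac was measured by chromatin immunoprecipitation and sequencing in 1 library each at D8 and D0, with D4 beside them. The deposited values are RPM, reads scaled to the library total, a unit inferred from the values: 93.8% of them at D8 and 94.7% at D0 are whole reads within 0.02 of a read, and the rest are mostly means over several regions. The submitters' processing notes name build mm10, Bowtie 1.1.0, CASAVA 1.8.4, SAMtools 0.1.19 and bedtools. How the region around a gene was chosen, whether reads were extended and whether duplicates were removed is not given in the sources used here, and no input was subtracted here. Per the labels, libraries had 13 PCR cycles and single reads of 50 nt. Of 20 value columns, 8 have no matching label and are not analysed here. Chromosomes came from RefSeq for 24108 symbols, 933 of them by synonym, and 311 genes share all their values with another gene.

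The change is log2((D8 × 0.710 + 1.53)/(D0 + 1.53)), with the 25th percentile of positive H3K27ac values as pseudocount; genes were compared from 2.29 RPM, the median, in either library. Python 3.11.15, numpy 2.4.6, scipy 1.17.1 and pandas 2.3.3 were used, and the code was tested on simulated data. Named genes are the 20 highest and 20 lowest with an interval on that side of 1, 4 members a list with the largest change, 27 fixed genes, and others that were chosen after their values were seen. Members and lists were chosen with earlier results of these data known. Loxl2 of the low-oxygen list was not analysed here. Some members of the lists are not reported here by name. Alternatives changed the scaling, pseudocount, filter, chromosomes and interval.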

Additional observations from a re-analysis of the deposited data

How the results depend on the processing

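Counts of genes past 2-fold moved with the settings. The higher and lower counts, 1531 and 1064, became 3185 and 375 in the RPM as deposited, where the median of compared genes lay at 0.34, and 355 and 2687 when the housekeeping genes were set to 0, where it lay at -0.39. They were 2809 and 2653 with the pseudocount divided by 4, 109 and 19 with it multiplied by 4, and 464 and 405 among the 5760 genes whose mean was above the 75th percentile. The 95% interval left 933 and 1064, and the interval over all genes 29 and 12. Counts stayed within 1.5 times under quantile scaling (1462 and 1481), trimmed-mean scaling (1777 and 830), no filter (1590 and 1075) and all chromosomes (1603 and 1091). Over 1593 values of the named genes under 9 settings, no gene past 2-fold changed sign. This outcome was largely fixed in advance. The pseudocount cannot change a sign, and D8 scale factors between 0.451 and 1 shift a gene by less than 2-fold from the factor of 0.710. List medians changed sign under at least 1 setting for the NF-kappaB, fibroblast, neuronal and oligodendrocyte lists; with means above the 75th percentile the neuronal median rests on 1 gene, and the oligodendrocyte, blood and skeletal muscle lists had no gene left. The cause of these shifts was not tested. No paired analysis was possible because each stage has 1 library. The D0 depth sets the limit, since 4948 of the compared genes had at most 3 reads there.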

Other observations

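Chromosomes differed little in their H3K27ac change. The median change lay between -0.12 on chromosome 6 and 0.15 on chromosome 8, where 12.6% of compared genes were higher and 4.84% were lower.

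Some genes were lower although they carried H3K4me3 at both stages. They were picked after their values were seen. Fli1, an ETS transcription factor, had 1.14 RPM at D8 and 5.69 RPM at D0, a scaled ratio of 0.143 (95% interval 0.0502 to 0.406). Vdr, the vitamin D receptor, had 1.78 RPM at D8 and 6.95 RPM at D0, a ratio of 0.182 (0.0767 to 0.443). Pdia5, a protein disulfide isomerase, had 1.27 RPM at D8 and 6.32 RPM at D0, a ratio of 0.143 (0.0534 to 0.382). Its H3K4me3 was 29.6 RPM at D8 and 25.8 RPM at D0 as deposited. With D8 multiplied by 0.370, the scaling of that mark, its H3K4me3 was lower at D8. Ehd4, an endosomal ATPase, had 3.43 RPM at D8 and 11.4 RPM at D0, a ratio of 0.214 (0.114 to 0.413).

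At the 29 genes kept as higher with the interval over all genes, the H3K4me1 change was positive in 24.1%, with a median of -0.15, against 50.0% of all compared genes. Their H3K27me3 change was positive in 34.5%, with a median of -0.16, against 49.9% of all compared genes. In all 1531 higher genes the H3K4me1 change was positive in 62.2% and the H3K27me3 change in 50.0%. The low shares of the 29 genes were therefore not shared by the wider group.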
